A study of Mus musculus with 48 samples.

Results

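The collagen genes of mouse calvarial osteoblasts were taken as every gene whose annotated symbol has the form of Col, a number, a and a number. A gene counted as measured when a probe passed the background test (detection p below 0.01) on 3 or more of the 48 bead arrays, and the brightest such probe stood for the gene. The array annotation named 41 such genes, and 31 of them were measured, among 10739 genes measured in all. Of the 31, 24 were above background on all 48 arrays and 7 on part of them, and 10 missed the limit. Just inside it was Col17a1, above background on 3 arrays, and just outside it was Col19a1, on 1 array. Col10a1, the collagen of hypertrophic cartilage, was above background on 0 arrays.

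Collagens are secreted or membrane proteins whose chains wind into triple helices. The fibril-forming types build the cables of bone, skin and cartilage, and type I collagen is the main protein of bone matrix, laid down by osteoblasts and then mineralised. Other families sit on fibril surfaces, form sheets and microfibrils, line basement membranes, or span the cell membrane. Osteoblasts make type I collagen in bulk, while type II and type IX collagens are known as products of cartilage cells.

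The cells were primary calvarial osteoblasts of C57BL/6 mice, differentiated for 17 days in medium with ascorbate, and they carried either a null Osmr gene, called KO here, or the wild-type gene, called WT. Osmr encodes the oncostatin M receptor. Total RNA was taken 6 h or 1 h after 10 ng/ml of murine oncostatin M (mOSM), of human oncostatin M (hOSM) or of leukemia inhibitory factor (mLIF), or from cultures labelled control, in 3 replicates of each of 16 groups. According to the series' design text, mOSM can use OSMR and the LIF receptor in mouse cells, and the other ligands only the LIF receptor. Titles and design text call the LIF murine and the treatment protocol calls it human. The design text speaks of 3 thawing occasions of the frozen cells. In the labels there are only 2 thawing days, replicate 3 of every group having its own and the other replicates sharing one. Replicates of a genotype are treated as cultures, 6 in all with 8 arrays each. Nothing states that they came from separate animals, so no p-value is known to measure the spread between animals. Comparisons of ligands, of times and of ligand effects between genotypes are taken within cultures. Their p-values measure the scatter left on the arrays once the levels of culture and group are fitted. Those of the genotype comparison take in the spread between these cultures only through 1 correlation shared by all genes (0.427). They do not use each gene's own spread between cultures.

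The median raw signal of an array lay between 116 and 170 units, and 14231 to 16767 probes per array were above background. The Osmr probe read 6.28 to 8.75 log2 units on the 24 KO arrays and 9.51 to 12.2 on the 24 WT arrays, with no overlap. All 24 KO arrays still passed the background test with it, and whether it lies in the deleted part is not given in the sources used here. Of 9 osteoblast markers 6 were measured, Alpl and Sp7 among them. Some labels call the cells osteocytes, and of 6 osteocyte markers 4 were measured, while Sost and Fgf23, which define mature osteocytes, were above background on 0 arrays. Of the 4 measured, Dmp1 was above background on only 7 arrays and Mepe on 12. The third KO culture stood apart, with a mean of 60.7 on the first principal component (29.6% of the variance) against -17.7 to -0.13 for the other 5 cultures.

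Many collagen genes varied more between cultures of a genotype than between experimental groups. The culture accounted for a median of 56.6% of the variance of a collagen gene over the 48 arrays, and the group (genotype, treatment and time) for 22.1%. Over all genes these medians were 24% and 38.0%. The range of the KO culture means passed 1 log2 unit in 13 of 31 collagen genes (41.9%), against 13.9% of all genes. In WT cultures it did so in 9 of 31 (29.0%), against 5.74% of all genes. The third KO culture was the highest or the lowest of the 6 for 77.4% of the collagen genes and for 61.0% of all genes.

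Collagens known from cartilage were high in the third KO culture and the second WT culture. Col2a1, the chain of type II collagen, averaged 11.66, 11.25 and 14.36 log2 units in KO cultures 1, 2 and 3, and 11.39, 13.49 and 12.10 in WT cultures 1, 2 and 3. Culture accounted for 98.0% of its variance. Col9a1, which with Col9a2 and Col9a3 forms type IX collagen on cartilage fibrils, averaged 5.92, 5.75 and 9.71 in the KO cultures and 6.11, 9.15 and 6.46 in the WT cultures. Col9a2 stood at 12.09 in the third KO culture and 10.71 in the second WT culture, against 8.94 to 10.05 in the others. Col24a1, a fibril-forming chain found in developing bone, was at 11.03 in the third KO culture and 8.42 in the second WT culture, against 5.43 to 5.97 in the others, and was above background on 33 of the 48 arrays. Col9a3 did not share this pattern: it averaged 6.90 in the third KO culture, against 8.58 to 9.01 in the others.

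Other collagens were low in the third KO culture. Col14a1, a collagen that sits on type I fibrils, averaged 8.41 there and 11.69 to 12.06 in the other 5 cultures. Col15a1, a collagen of the basement membrane zone, averaged 6.44 there and 9.13 to 10.23 elsewhere. Col3a1, the chain of type III collagen of soft connective tissue, averaged 10.68 there and 12.16 to 12.60 elsewhere. Col22a1, a fibril-associated collagen of tissue junctions, stood out in the second WT culture, with 7.50 there and 4.54 to 5.28 elsewhere, but it was above background on 10 of the 48 arrays and on at most 1 array of any group. The chains of type I collagen varied less: the 6 culture means of Col1a1 lay between 13.94 and 14.19, and those of Col1a2 between 13.48 and 13.87.

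**Figure D1:**
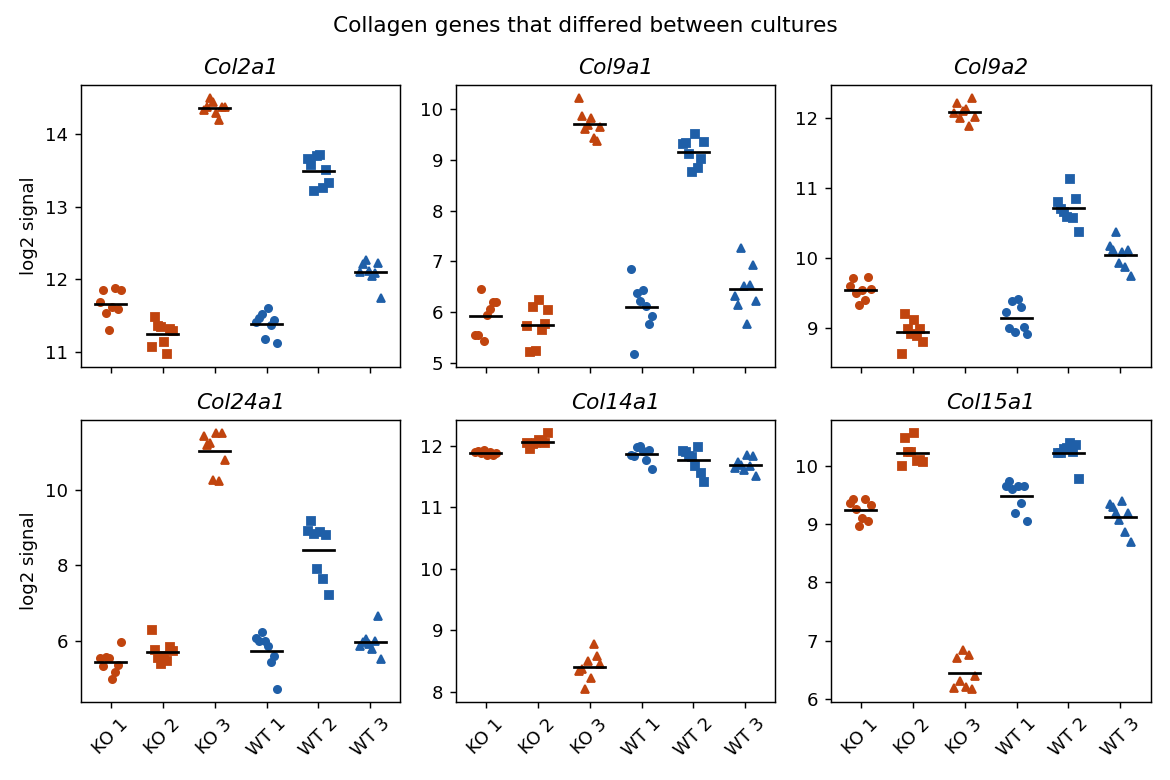
Log2 signal (vertical axis) of 6 collagen genes on every array, by culture: the 3 KO cultures (red) left of the 3 WT cultures (blue), 8 arrays each, with black lines at the means. Col2a1, Col9a1, Col9a2 and Col24a1 are high in KO 3 and WT 2, and Col14a1 and Col15a1 are low in KO 3.

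Markers of other cell types moved with these cultures. Of 9 chondrocyte markers 8 were measured. Matn1 averaged 11.64 in the third KO culture and 9.18 in the second WT culture, against 4.80 to 5.56 in the others, and Acan averaged 9.71 and 6.59, against 4.57 to 4.69. Sox9 and Comp did not share this pattern: Comp averaged 10.06 in the third KO culture and 12.91 to 13.66 elsewhere. The summed signal of the 8 markers overlapped between cultures, at 13838 to 21557 in the third KO culture and 13145 to 22730 in the second WT culture, against 10638 to 21108 over the others. Sox9 and Comp, both at 12.7 log2 units on average over the 48 arrays, weigh most in this sum of unlogged signals. The other chondrocyte markers averaged 5.61 to 6.95, so the sum says little about them. Osteoblast markers other than Sp7 were high in the same cultures. Ibsp averaged 10.36 in the third KO culture and 11.84 in the second WT culture, against 5.26 to 8.91 in the others, and Bglap 9.64 and 11.42, against 5.70 to 7.99. Sp7 averaged 8.14 in the third KO culture and 9.15 in the second WT culture, against 7.87 to 8.57 in the others. The 6 osteoblast markers measured summed to 4833 to 7327 in the third KO culture and 9603 to 20897 in the second WT culture, against 798 to 5200 over the others, ranges that overlap for the third KO culture. The 6 adipocyte markers measured summed to 1233 to 1893 in the third KO culture, against 6477 to 33948 over the other cultures. The 5 macrophage and osteoclast markers measured summed to 25459 to 33655 in the first WT culture and 12897 to 16475 in the second, against 7387 to 12422 in the others, with Ptprc above background on 0 arrays. The part of these cells in the collagen levels was not tested, and in such bulk RNA a change in the number of cells of a type and in RNA per cell cannot be told apart. The ligand differences below are taken within a culture, so that each treated array is set against its own culture's control.

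After 6 h of mOSM in WT cells, 11 of 31 collagen genes fell and 3 rose at an adjusted p under 0.05. These calls come from limma with culture as a block and Benjamini-Hochberg adjustment over all genes, as do all the calls on ligands below. The share called, 45.2% of the collagen genes, equalled the 45.2% called among all 10739 genes, so the count by itself sets the collagens apart in nothing. The lower calls made up 35.5% of the collagen genes and 27.5% of all genes, the higher calls 9.68% and 17.7%. The median log2 difference was -0.26 over the collagen genes and -0.08 over all genes. All 14 called genes had the same sign in all 3 cultures. Without the culture block 1 of the 14 was called, Col8a2, against 27.5% of all genes.

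Col8a2 showed the plainest change. It encodes a chain of type VIII collagen, a short-chain collagen that forms lattices under endothelia, and with mOSM for 6 h the WT cultures 1, 2 and 3 read 11.53, 11.24 and 11.95 log2 units, against 12.86, 12.52 and 12.96 in their controls. Every mOSM array lay below every control array. The difference was -1.21 ± 0.10 (SE, n = 3 cultures), or 2.31-fold lower, with an adjusted p of 1.61e-11 in limma and 0.000187 without the culture block. Its other 2 probes gave -1.18 and -1.27. Col8a1, the partner chain, differed by 0.01 ± 0.17 (adjusted p = 0.96).

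Both multiplexins, collagens of the basement membrane zone, fell. Col18a1, whose C-terminal end is the source of endostatin, read 10.82, 10.34 and 10.75 with mOSM, against 11.36, 11.19 and 11.19 in the WT controls at 6 h. The groups did not overlap. The difference was -0.61 ± 0.12 (adjusted p = 7.04e-05), while a second, dimmer probe gave -0.36 (adjusted p over all probes 0.22). Col15a1 read 9.05, 9.77 and 8.70 with mOSM, against 9.74, 10.22 and 9.30, so that the groups overlapped while each culture fell. Its difference was -0.58 ± 0.15 (adjusted p = 0.0014).

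Among the 11 fibril-forming genes, 4 fell and 0 rose. Col24a1 read 4.71, 7.20 and 5.52 with mOSM, against 6.00, 9.19 and 5.97 in WT controls, and only 1 of the 3 mOSM arrays was above background. Its difference of -1.24 ± 0.29 (adjusted p = 0.000585) shrank to -0.80 when values below background were set at the background limit, and to -0.65 without background correction. Its other probes gave -0.94 and -0.74 (adjusted p over all probes 0.0046 and 0.028). Col5a1, a chain of type V collagen, which seeds and limits type I fibrils, read 13.40, 13.12 and 13.26, against 13.73, 13.57 and 13.76. Its groups did not overlap, and it fell by 0.43 on the log2 scale (SE 0.10, adjusted p = 0.000784), but with median scaling of the arrays its adjusted p was 0.065.

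The type I chains gave different calls. Col1a2, the alpha 2 chain, read 13.20, 13.47 and 13.41 with mOSM and 13.68, 13.91 and 13.64 in the WT controls, a difference of -0.38 ± 0.13 (adjusted p = 0.017). Col1a1, the alpha 1 chain, read 13.79, 14.21 and 13.89 with mOSM and 14.02, 14.19 and 14.02 in the controls, and its difference of -0.12 ± 0.14 did not pass (adjusted p = 0.55, 95% interval -0.41 to 0.18). The intervals of the 2 chains overlapped, and the difference between them was not tested. The Col1a2 call was lost without the first or the second WT culture and with median scaling.

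Col2a1 fell by 0.35 on the log2 scale (SE 0.14, adjusted p = 0.033) within cultures that themselves spanned 2.11 log2 units. Its mOSM arrays read 11.12, 13.33 and 11.75, against 11.47, 13.57 and 12.21 in the WT controls, and its other probes gave -0.35 and -0.33 (adjusted p over all probes 0.039 and 0.10). The call was lost without the first or the third WT culture and with median scaling. Col3a1 read 12.40, 12.45 and 12.34, against 11.97, 12.29 and 12.04. The groups did not overlap, but the difference of 0.30 ± 0.22 did not pass (adjusted p = 0.29), while a second probe gave 0.66 (adjusted p over all probes 0.030) and the mean of both probes 0.48 (adjusted p = 0.0041). Col5a2, the neighbour of Col3a1 on its chromosome, differed by -0.03 ± 0.21. Col11a1, which forms type XI collagen with the type II fibrils of cartilage, differed by -0.64 ± 0.31 (adjusted p = 0.089), and by -0.32 on a second probe.

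Of 3 basement membrane genes measured, 0 were called. Col4a1 and Col4a2, the neighbouring chains of the common type IV network, differed by -0.20 ± 0.10 (adjusted p = 0.10) and 0.02 ± 0.10. Col4a5, a chain of a separate type IV network, differed by -0.19 ± 0.24 (adjusted p = 0.55), while a second probe gave -0.51 (adjusted p over all probes 0.042). Col6a1, a chain of the beaded microfibrils around cells, read 13.80, 14.09 and 13.82 with mOSM against 14.09, 14.34 and 14.21 in WT controls. It was called lower at -0.31 ± 0.12 (adjusted p = 0.027), but its other 2 probes gave -0.06 and 0.06, and the mean of its probes -0.10 (adjusted p = 0.61). Its neighbour Col6a2 differed by -0.30 ± 0.15 (adjusted p = 0.11).

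The fibril-associated group split, with 1 of 6 genes higher and 2 lower. Col9a3 read 8.98, 9.24 and 9.19 with mOSM, against 8.16, 8.61 and 8.80 in the WT controls, a difference of 0.61 ± 0.24 (adjusted p = 0.037). With the beadchip as a further block it was 0.31 and no longer called (adjusted p = 0.20). The Col9a3 call was also lost when any 1 WT culture was left out, with median scaling and with no detection filter. Col14a1 and Col16a1, both found on fibril surfaces, fell by 0.31 and 0.35 on the log2 scale (adjusted p = 0.032 and 0.020). Each was lost when any 1 WT culture was left out.

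Col26a1, a collagen with an EMI domain, read 10.43, 11.54 and 10.68 with mOSM, against 10.96, 12.14 and 11.53 in the WT controls. The second culture was high in both groups, so they overlapped, and the matched difference was -0.66 ± 0.12 (adjusted p = 5.45e-05). Col23a1, a collagen anchored in the cell membrane, read 10.22, 9.49 and 9.92, against 9.49, 8.95 and 9.61, a difference of 0.53 ± 0.18 (adjusted p = 0.015), with 0.67 from a second probe. The Col23a1 call was lost without the first or the second WT culture and with median scaling. Col28a1, a relative of the type VI chains, read 6.74, 5.86 and 6.48, against 6.11, 5.52 and 5.79, where 2 of the 3 control arrays were above background. Its difference was 0.55 ± 0.21 (adjusted p = 0.030), and 0.21 without background correction, where it was not called (adjusted p = 0.050). The Col28a1 call was also lost without the first or the third WT culture, with median scaling and with the beadchip as a further block.

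**Figure D2:**
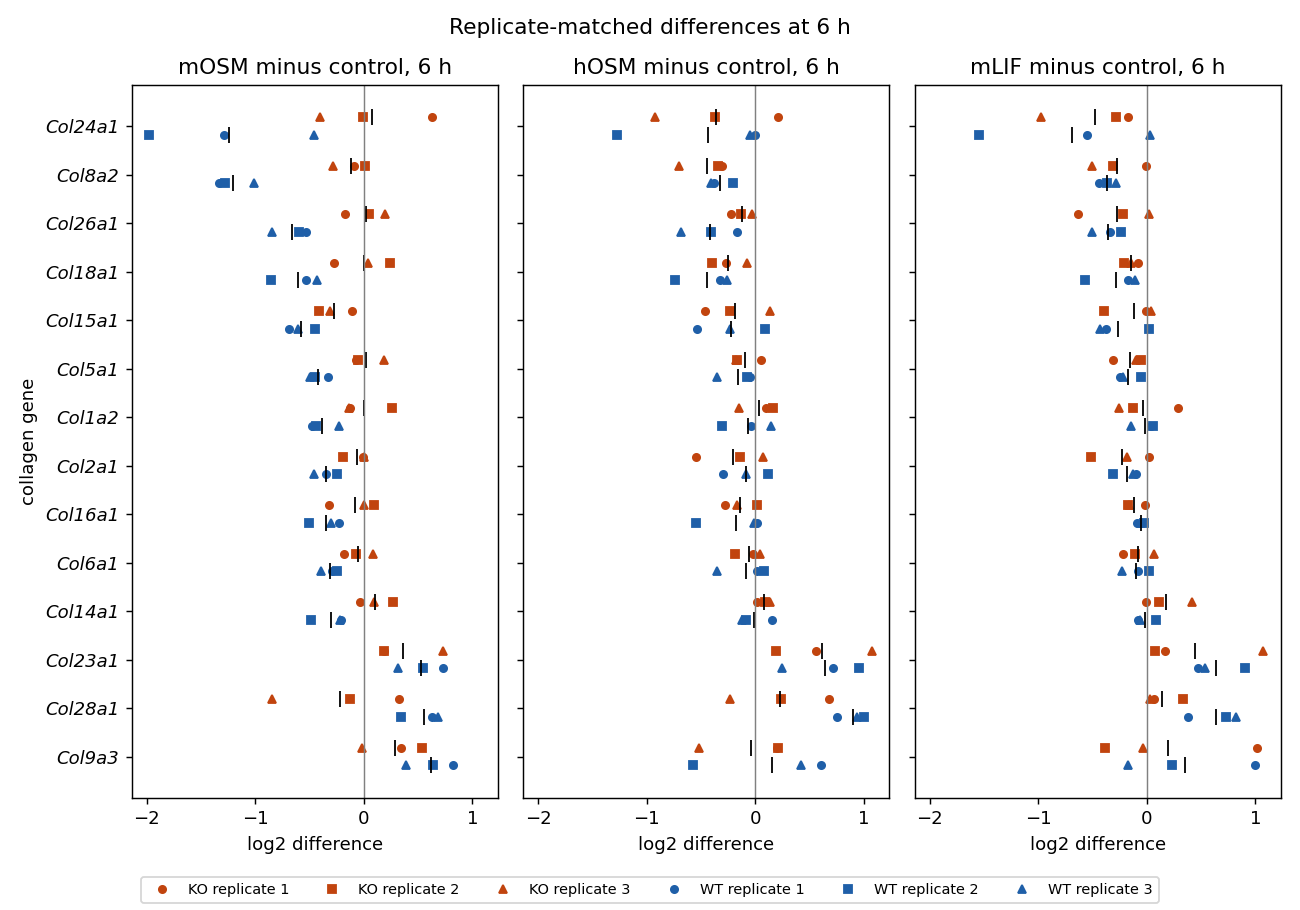
Log2 difference from the same culture's control at 6 h (horizontal axis) for the 14 collagen genes called with mOSM in WT cells, with KO cultures (red) above WT cultures (blue), and black ticks at the fitted differences. WT mOSM points for Col8a2 lie between -1.33 and -1.01, away from the KO points at -0.29 to 0.01.

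In KO cells mOSM gave 0 called collagen genes at 6 h, where 0.0466% of all genes were called by limma. Before adjustment, 3 of 31 collagen genes had a p under 0.05. Col8a2 read 12.70, 12.65 and 12.10 with mOSM, against 12.79, 12.64 and 12.39 in the KO controls, so the groups overlapped. Its difference was -0.12 ± 0.10, with a 95% interval of -0.33 to 0.08. Col18a1 read 11.13, 11.67 and 12.08 against 11.41, 11.43 and 12.04, a difference of 0.00 ± 0.12. Col11a1 read 6.84, 5.93 and 7.37 against 8.07, 7.13 and 7.77, a difference of -0.94 ± 0.31 that did not pass (adjusted p = 0.49). Its second probe gave -0.16 ± 0.20.

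The test of the difference itself, the mOSM effect in KO cells minus that in WT cells at 6 h, called 5 collagen genes higher and 0 lower, or 16.1%, against 26.3% of all genes in either direction and 16.3% higher. All 5 had fallen in WT cells. The difference of effects was 1.08 ± 0.14 for Col8a2 (adjusted p = 7.46e-07), 0.68 ± 0.18 for Col26a1 (0.0039) and 0.61 ± 0.17 for Col18a1 (0.0061). It was 1.31 ± 0.41 for Col24a1 (0.015) and 0.45 ± 0.14 for Col5a1 (0.019). Without the culture block Col8a2 was the 1 collagen gene called (adjusted p = 0.034), against 9.71% of all genes. Without the third KO culture, Col8a2 gave 1.17 and Col18a1, Col24a1 and Col26a1 were still called, while Col5a1 gave 0.37 (adjusted p = 0.12). The Col24a1 call was lost when either of the first 2 cultures of either genotype was left out, and its value was 0.59 without background correction (adjusted p = 0.15), with 1 of its 3 WT mOSM arrays above background. The Col18a1 call was lost without the second WT culture, with median scaling and with the mean of its probes. For Col15a1 the difference of effects was 0.30 ± 0.21 (adjusted p = 0.30).

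Set against the 14 collagen genes called with mOSM in WT cells and the 0 in KO cells, the ligands that use only the LIF receptor gave 2 to 5 calls in WT cells and 0 to 3 in KO cells. In WT cells at 6 h, hOSM called 2 higher and 3 lower, 16.1% of the collagen genes, against 5.63% of all genes, 2.96% higher and 2.67% lower. There mLIF called 1 higher and 1 lower, 6.45% of the collagen genes, against 5.45% of all genes, 2.86% higher and 2.59% lower. In KO cells at 6 h, hOSM called 1 higher and 2 lower, 9.68%, against 6.99% of all genes, 3.67% higher and 3.32% lower, and mLIF called 0, against 7.89% of all genes, with 6 of 31 at an unadjusted p under 0.05. These comparisons share each genotype's controls. Without the culture block 0 of these collagen calls remained, where 0.829% of all genes were called with hOSM in KO cells, 0.661% with hOSM in WT cells and 0.494% with mLIF in WT cells.

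Col23a1 rose in 3 of these 4 comparisons. In WT cells it read 10.20, 9.90 and 9.86 with hOSM and 9.96, 9.85 and 10.14 with mLIF, against 9.49, 8.95 and 9.61 in the shared controls. Neither ligand group overlapped the controls, and both differences were 0.64 ± 0.18 (adjusted p = 0.024 for hOSM and 0.026 for mLIF). The hOSM call was lost without the first or the second WT culture and with the beadchip as a further block. The mLIF call was lost without any 1 WT culture and with median scaling. In KO cells it read 10.13, 9.79 and 9.65 with hOSM, against 9.57, 9.60 and 8.57, a difference of 0.61 ± 0.18 (adjusted p = 0.029). The third KO culture gave the low control, and without that culture the difference was 0.38 (adjusted p = 0.34). This call was lost under 7 of 15 alternatives, also without the first KO culture, with the beadchip as a further block and with the mean of its probes. With mLIF in KO cells the Col23a1 difference was 0.44 ± 0.18 (adjusted p = 0.13).

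Col8a2 also fell in 3 of these 4 comparisons. In WT cells it read 12.48, 12.31 and 12.55 with hOSM and 12.42, 12.15 and 12.67 with mLIF, both overlapping the controls at 12.86, 12.52 and 12.96. The differences were -0.33 ± 0.10 (adjusted p = 0.049, called under 4 of 15 alternatives) and -0.36 ± 0.10 (adjusted p = 0.028), the second lost without any 1 WT culture and with median scaling. In KO cells it read 12.49, 12.30 and 11.69 with hOSM, a difference of -0.45 ± 0.10 (adjusted p = 0.0044), which without the third KO culture was -0.32 (adjusted p = 0.19). With mLIF in KO cells the difference was -0.27 ± 0.10 and did not pass (adjusted p = 0.099). The hOSM effect on Col8a2 in KO cells minus that in WT cells was -0.12 ± 0.14, with a 95% interval of -0.41 to 0.17.

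Col28a1 rose with hOSM in WT cells, reading 6.87, 6.52 and 6.73 against 6.11, 5.52 and 5.79 in the controls, a difference of 0.90 ± 0.21 (adjusted p = 0.0058). The call was lost without the first or the third WT culture, and the value was 0.36 without background correction. Col18a1 and Col26a1 fell there by 0.44 and 0.42 on the log2 scale (adjusted p = 0.019 and 0.039), and both were lost when any 1 WT culture was left out. Col11a1 fell with hOSM in KO cells, where it read 6.63, 6.72 and 6.48 against 8.07, 7.13 and 7.77, with no overlap. That difference was -1.05 ± 0.31 (adjusted p = 0.031), its second probe gave -0.09, and without the third KO culture it was -0.92 (adjusted p = 0.25). For hOSM and for mLIF the test of KO against WT effects at 6 h called 0 collagen genes and 0% of all genes, with 1 and 0 collagen genes at an unadjusted p under 0.05.

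**Figure D3:**
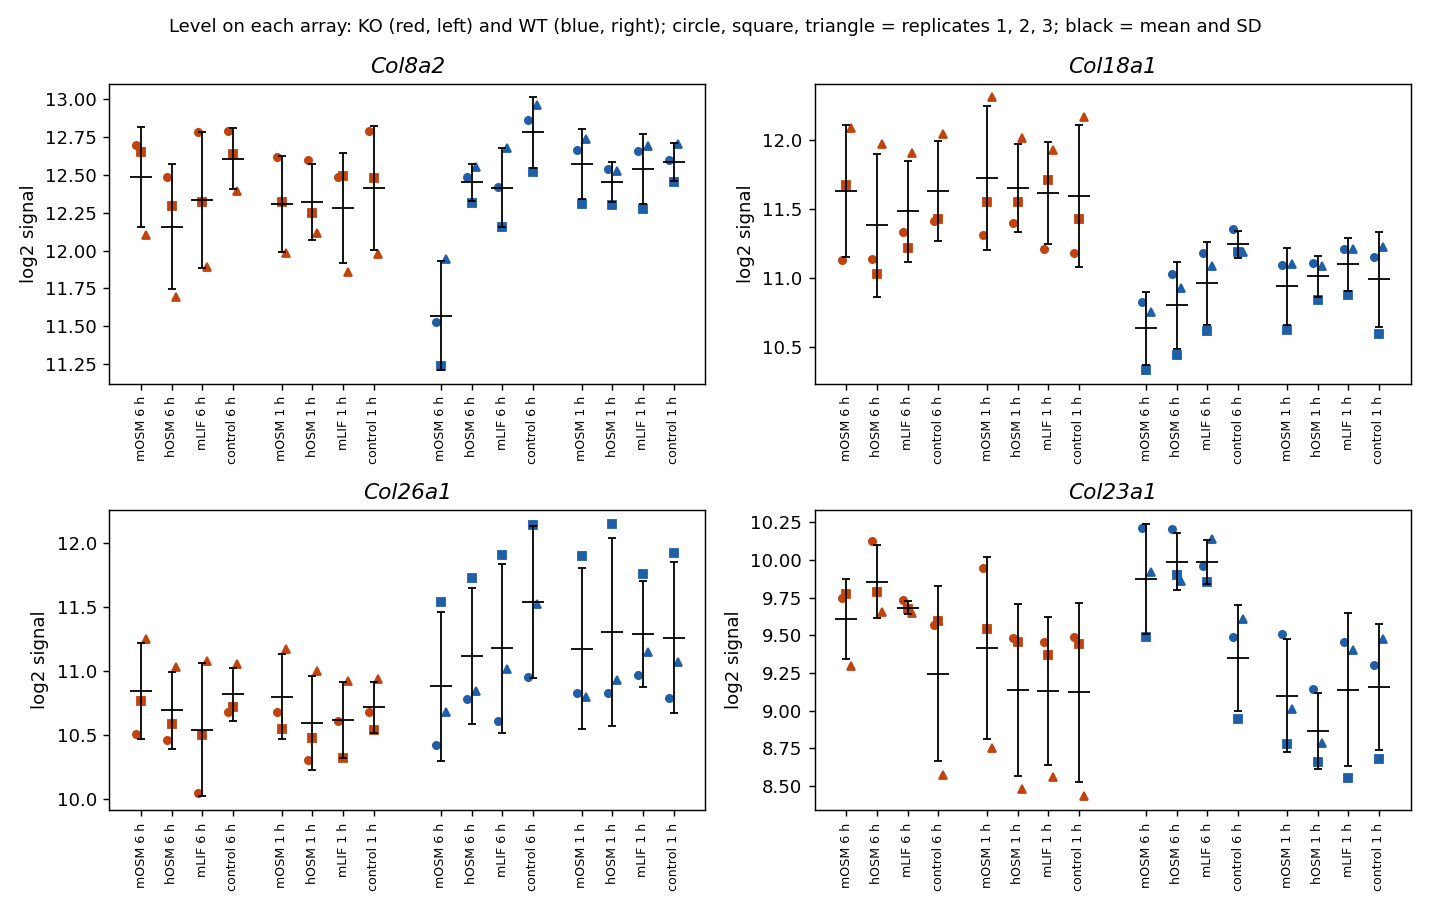
Log2 signal (vertical axis) of Col8a2, Col18a1, Col26a1 and Col23a1 on each array, with KO groups (red) left of WT groups (blue) and, within each, 6 h left of 1 h and ligands left of control. Black bars give the mean and SD of 3 arrays. The WT mOSM 6 h arrays of Col8a2, at 11.24 to 11.95, lie below all other WT arrays, and Col18a1 averages higher over the KO cultures, 11.59 against 10.96.

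Set directly against the other ligands in WT cells at 6 h, mOSM gave 3 lower and 0 higher collagen genes against hOSM (9.68%, against 33.1% of all genes, 20.8% lower) and equal counts against mLIF (9.68%, against 31.5%, 19.3% lower). Col8a2 was lower with mOSM than with hOSM by -0.88 ± 0.10 (adjusted p = 4.04e-08) and than with mLIF by -0.84 ± 0.10 (adjusted p = 8.33e-08), and it was the 1 collagen gene called in each when the culture block was left out, against 15.9% and 15.5% of all genes. Against hOSM the others were Col24a1 at -0.80 ± 0.29 (adjusted p = 0.029) and Col5a1 at -0.27 ± 0.10 (adjusted p = 0.040). Col24a1 was called under 8 of 15 alternatives, with -0.33 without background correction, and Col5a1 under 5 of 15, being lost without any 1 WT culture. Against mLIF the others were Col1a2 at -0.37 ± 0.13 (adjusted p = 0.030) and Col18a1 at -0.32 ± 0.12 (adjusted p = 0.032). Col1a2 was called under 10 of 15 alternatives, being lost without the first or the second WT culture and with median scaling. Col18a1 was called under 8 of 15, being lost without any 1 WT culture, with median scaling and with the mean of its probes. Col26a1 did not pass against either, at -0.24 ± 0.12 (adjusted p = 0.15) and -0.30 ± 0.12 (adjusted p = 0.069). For Col23a1 mOSM minus hOSM was -0.11, with a 95% interval of -0.47 to 0.25.

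At 1 h limma called 0 collagen genes in each of the 6 ligand comparisons. The shares of all genes called were 0.00931% with mOSM, 1.14% with hOSM and 1.15% with mLIF in KO cells, and 1.64%, 1.45% and 1.69% with the same ligands in WT cells. Collagen genes at an unadjusted p under 0.05 numbered 1, 0 and 1 in KO cells and 0, 0 and 2 in WT cells. In WT cells at 1 h Col8a2 read 12.66, 12.31 and 12.74 with mOSM, against 12.60, 12.45 and 12.70 in the controls, a difference of -0.01 ± 0.10. The test of KO against WT effects at 1 h called 0 collagen genes for each ligand, against 0.372% of all genes for mOSM and 0% for the others, with 1, 0 and 0 collagen genes at an unadjusted p under 0.05 in limma.

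The mOSM effect at 6 h minus that at 1 h in WT cells called 6 collagen genes lower, or 19.4%, against 30.4% of all genes called in either direction and 18.9% called lower. They were Col8a2 at -1.19 ± 0.14 (adjusted p = 1.15e-07), Col24a1 at -1.32 ± 0.41, Col15a1 at -0.58 ± 0.21, Col26a1 at -0.57 ± 0.18, Col18a1 at -0.56 ± 0.17 and Col5a1 at -0.49 ± 0.14, with adjusted p of 0.0085 to 0.032 for the other 5. Col8a2 alone among them was called without the culture block (adjusted p = 0.015), against 13% of all genes. Controls at 6 h against controls at 1 h gave 0 called collagen genes in KO cells (1.39% of all genes) and in WT cells (1.56%), with 3 of 31 at an unadjusted p under 0.05 in each.

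**Figure D4:**
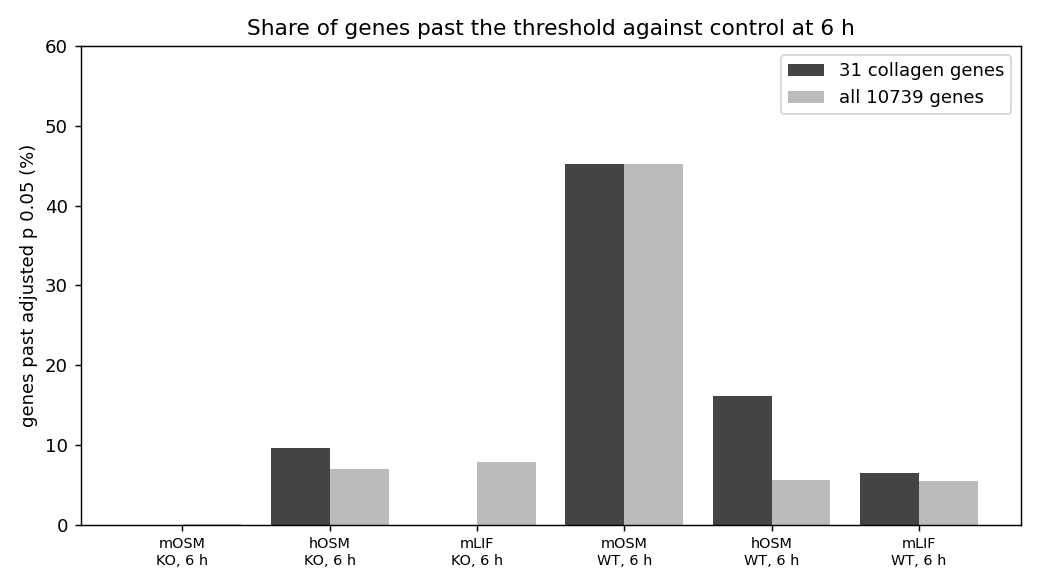
Percentage of genes at an adjusted p under 0.05 against control at 6 h (vertical axis, from 0) for the 31 collagen genes (dark) and all 10739 genes (light), with the 3 KO comparisons left of the 3 WT comparisons. With mOSM in WT cells both bars stand at 45.2%.

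The genotypes differed in 1 collagen gene of 31, or 3.23%, against 1.86% of all genes (0.801% higher), averaged over treatments and times with culture as a random effect in limma. Without that effect 6 collagen genes were called, against 20.4% of all genes. Col18a1 averaged 11.26, 11.45 and 12.05 in the KO cultures, against 11.12, 10.69 and 11.07 in the WT cultures, with no overlap. The difference was 0.63 ± 0.14 (adjusted p = 0.0098). That SE rests on the correlation of 0.427 shared by all genes. For Col18a1 itself, culture took 36.9% of the variance, and 5.06% was left after culture and group. Its culture means had an SD of 0.41 in KO and 0.24 in WT cells, so the SE and adjusted p may understate this spread. An exact two-sided permutation test over the 6 culture means gave p = 0.1, the smallest it allows. The difference was 0.45 among the cultures of the first thawing day and 0.98 between the 2 of the second. It was 0.40 without the third KO culture (adjusted p = 0.020), and 0.49 without the second WT culture (adjusted p = 0.16). Col6a2 also did not overlap, with 11.35 to 11.90 in KO cultures against 11.93 to 12.31 in WT cultures, and its difference of -0.45 ± 0.15 did not pass (adjusted p = 0.12).

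RefSeq windows of the 250 bases before the start site were available for 24 of the 31 measured genes, 27 windows in all. The windows of a strongly lowered gene and of the members that held a STAT or an AP-1 letter pattern are shown, 5′ to 3′ on the gene's strand, on build GRCm38.p6. Col8a2 lies at chr4:126286544-126286793 on the plus strand, Col28a1 at chr6:8192618-8192867 on the minus strand, and Col6a1 at chr10:76726045-76726294 on the minus strand. Capitals mark the pattern found.
Col8a2: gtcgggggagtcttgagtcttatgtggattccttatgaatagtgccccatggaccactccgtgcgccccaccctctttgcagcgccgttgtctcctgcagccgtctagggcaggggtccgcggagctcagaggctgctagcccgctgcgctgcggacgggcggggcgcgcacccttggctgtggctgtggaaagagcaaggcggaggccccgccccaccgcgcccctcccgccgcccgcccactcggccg
Col28a1: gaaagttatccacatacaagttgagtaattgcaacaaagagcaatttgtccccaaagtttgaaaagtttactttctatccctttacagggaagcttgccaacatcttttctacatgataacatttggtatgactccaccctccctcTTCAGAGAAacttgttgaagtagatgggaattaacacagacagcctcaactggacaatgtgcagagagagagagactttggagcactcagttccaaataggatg
Col6a1: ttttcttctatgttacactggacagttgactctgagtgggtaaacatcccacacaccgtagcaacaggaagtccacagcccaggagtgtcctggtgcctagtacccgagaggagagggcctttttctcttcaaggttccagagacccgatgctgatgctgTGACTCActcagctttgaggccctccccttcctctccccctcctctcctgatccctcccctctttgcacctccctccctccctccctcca
The pattern TTCNNNGAA, read by STAT factors that act below this receptor family, was in 3.70% of the 27 collagen windows and 7.02% of 32851 windows of all genes, searched on both strands. In Col28a1 it began at -104 relative to the start. The same pattern with 4 bases between TTC and GAA was in 0 collagen windows and in 5.85% of all windows. TGANTCA, read by AP-1, was in 3.70% of the collagen windows, in Col6a1 at -90, and in 6.75% of all windows. The Col8a2 window held none of these, which says only that these letters are not in these 250 bases.

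Genes that act on collagen were counted in 5 lists for mOSM in WT cells at 6 h, where 45.2% of all genes were called, 17.7% higher and 27.5% lower. In KO cells limma called 0 members of any of these lists with mOSM at 6 h. Of 24 measured genes of collagen synthesis, folding and secretion, 2 rose and 5 fell, and 2 and 2 without the culture block. Plod2 and Plod3, which hydroxylate collagen lysines, rose by 0.75 ± 0.14 and 0.51 ± 0.12 (adjusted p = 4.93e-05 and 0.00080). Tmem38b, an endoplasmic reticulum cation channel, differed by -0.61 ± 0.13 (adjusted p = 0.00027), Fkbp14, a folding enzyme, by -0.54 ± 0.19 (adjusted p = 0.019). Serpinh1, the collagen chaperone HSP47, differed by -0.09 ± 0.12.

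Of 9 measured genes of procollagen processing and crosslinking, 5 rose and 3 fell, and 2 and 1 without the culture block. Tgm2, which crosslinks matrix proteins, rose by 3.91 ± 0.27 (adjusted p = 1.54e-13) and Loxl4, a lysyl oxidase relative, by 2.45 ± 0.21 (adjusted p = 2.78e-11). Loxl3, of the same enzyme family, rose by 0.89 ± 0.22 (adjusted p = 0.0013). Pcolce, the enhancer of procollagen C-propeptide removal, differed by -0.55 ± 0.13 (adjusted p = 0.00052), and Lox itself by -0.17 ± 0.14 (adjusted p = 0.32).

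Of 13 degradation genes and inhibitors, 2 rose and 6 fell, and 2 and 2 without the culture block. Mmp13, a collagenase of bone and cartilage, rose by 2.10 ± 0.51 (adjusted p = 0.0011), and Timp1, a metalloproteinase inhibitor, by 0.99 ± 0.15 (adjusted p = 1.64e-06). Mmp14, a membrane-bound collagenase, differed by -0.52 ± 0.10 (adjusted p = 0.00011, and 0.093 without the block). Among 7 collagen receptors, 4 fell and 1 rose, and 3 and 0 without the culture block, Itga2 and Ddr2 being lost. Itga2, Itga11 and Itga1, alpha chains of collagen-binding integrins, differed by -2.32 ± 0.22, -0.96 ± 0.10 and -0.80 ± 0.14 (adjusted p = 1.87e-10, 5.79e-10 and 2.26e-05). Ddr1, a receptor kinase that binds collagen, differed by -1.04 ± 0.13 (adjusted p = 8.04e-08), and its relative Ddr2 rose by 0.50 ± 0.17 (adjusted p = 0.018). Of 12 fibril-associated proteins, 0 rose and 4 fell, 2 of them without the culture block, with Thbs1 at -1.52 ± 0.23 and Thbs2, both thrombospondins, at -0.56 ± 0.11 (adjusted p = 2.45e-06 and 0.00013).

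Cell type markers moved in the same comparison. In WT cells at 6 h, 5 of the 6 osteoblast markers measured fell with mOSM, Sp7 with a log2 difference of -2.62, and 5 of the 6 adipocyte markers fell, against 27.5% of all genes. Without the culture block 1 marker of each list was called lower. Of 8 chondrocyte markers 2 fell and 0 rose, and of 5 macrophage markers 0 fell and 1 rose. The summed signal of the osteoblast markers was 798 to 9603 with mOSM and 1748 to 20897 in controls. That of the chondrocyte markers was 10638 to 13145 with mOSM and 17449 to 22730 in controls, with no overlap. Sox9 and Comp, the brightest of the list, weigh most in this sum too. The 2 that fell were Sox9 at -1.43 ± 0.15 and Snorc at -0.98 ± 0.34, while Comp, at -0.31 ± 0.14, was not called. The summed signal of the adipocyte markers was 6477 to 15836 with mOSM and 16832 to 31892 in controls. Of 4 osteocyte markers 1 rose and 1 fell, Pdpn by 0.90 ± 0.14 (adjusted p = 4.35e-06) and Phex with -0.61 ± 0.18 (adjusted p = 0.0058). The summed signal of the osteocyte markers was 17371 to 18917 with mOSM and 9429 to 10419 in controls, with no overlap. This sum of unlogged signals is nearly all Pdpn, which averaged 13.5 log2 units over the 48 arrays. Phex averaged 7.55, Mepe 5.42 and Dmp1 5.03, so the sum follows Pdpn and not the list. The part of these cells in the collagen changes was not tested.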

How the data were processed

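RNA was measured on 48 Illumina bead arrays. BeadStudio and limma were used, per the submitters' processing notes, which give no versions here, and the genome build is not given in the sources used here. Per the file headers, the deposited raw table holds a signal intensity and a detection p-value for each probe. The deposited log2 values differ by at most 0.0338 from values recomputed from those intensities with limma's neqc (offset 16), so they were used as given. R 4.3.3 and limma 3.58.1 were used. Symbols came from the platform annotation, updated by Entrez ID. Means of 16 groups were fitted with 6 cultures as a block, on 28 residual degrees of freedom. Arrays of 1 culture deviated together: their deviations from the group means correlated at 0.659 on average, at least 0.302 over 168 pairs. This correlation is the basis of the pairing, with the thawing occasions of the design text. The thawing days in the labels do not separate the first and second replicates of a group.

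Calls are at adjusted p under 0.05. Genes named are those called with the largest changes in each comparison, plus common types and part of the pathway genes called. Called pathway genes left out above include P4ha2 at -0.53, Timp4 at -0.72, Mmp16 at -0.54 and Pcolce2 at 0.62 (mOSM in WT cells at 6 h). Each of them changed more than a named gene of its list. Other members and list genes were named after their values were seen. Members and lists were chosen with earlier results of these data known. The method was tested on simulated data. Alternatives varied the block, the beadchip, background correction, scaling, filters, probe choice and cultures. Array number limits precision.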

Additional observations from a re-analysis of the deposited data

Results flagged for a closer look

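These collagen results were picked out because an effect differed between genotypes or between times by a test of the difference itself (limma, interaction contrasts with culture as a block). The cause was not tested. The mOSM effect at 6 h, taken in KO minus WT cells on the log2 scale, was 1.08 for Col8a2, 0.68 for Col26a1, 0.61 for Col18a1, 1.31 for Col24a1 and 0.45 for Col5a1. The mOSM effect in WT cells, taken at 6 h minus 1 h, was -1.19 for Col8a2, -1.32 for Col24a1, -0.58 for Col15a1, -0.57 for Col26a1, -0.56 for Col18a1 and -0.49 for Col5a1. For Col8a2 both differences were called under all 15 alternatives, with values of 1.01 to 1.18 between genotypes and -1.30 to -1.09 between times. For the other genes each was lost under 2 to 6 of the 15.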

How the results depend on the processing

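Of the 42 calls on single collagen genes, 0 reversed under any alternative. Counts of called collagen genes are given here for the alternatives that moved them by more than 1.5 times; the causes were not tested. Without the culture pairing (no replicate block) the counts were 1 for mOSM in WT cells at 6 h, 1 each for its KO minus WT effect, its 6 h minus 1 h effect, mOSM against hOSM and mOSM against mLIF, 0 for hOSM in KO, hOSM in WT and mLIF in WT at 6 h, and 6 for KO against WT. Median scaling gave 5 for mOSM in WT cells at 6 h, 2 for its KO minus WT effect, 2 for its 6 h minus 1 h effect, 1 for hOSM in KO, 2 for hOSM in WT, 0 for mLIF in WT, 5 for mOSM against hOSM and 1 for mOSM against mLIF. It also set the median log2 difference of all genes with mOSM in WT cells at 6 h to -0.19, against -0.08, and all 5 collagen genes then called were among the 14. With the beadchip as a further block, hOSM in WT gave 3, mLIF in KO 2 and KO controls at 6 h against 1 h 1. Only the compared groups gave 0 for hOSM in KO, 1 for hOSM in WT, 0 for mLIF in WT and 3 for the KO minus WT effect. Without background correction mOSM against hOSM gave 5 and against mLIF 8, and with detection on 24 arrays 6 and 5. The mean of all kept probes gave 1 for hOSM in KO, 3 for hOSM in WT, 5 for mOSM against hOSM and 0 for KO against WT. With no detection filter hOSM in WT gave 3 and KO against WT 3.

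Leaving out 1 culture at a time, counts ran from 6 to 15 for mOSM in WT cells at 6 h, 0 to 5 for hOSM in WT, 0 to 3 for mLIF in WT and 0 to 3 for hOSM in KO. They ran from 4 to 5 for the KO minus WT effect, 2 to 7 for the 6 h minus 1 h effect, 1 to 4 against hOSM, 1 to 4 against mLIF and 0 to 3 for KO against WT, and were 0 in every other comparison. For mOSM in WT cells they were 6, 8 and 9 without WT cultures 1, 2 and 3. With mOSM in WT cells at 6 h, Col8a2 was called under all 15 alternatives, and Col15a1, Col18a1, Col24a1 and Col26a1 under all but the fit without pairing. On the 1 beadchip that held WT arrays of both groups, 2 mOSM arrays and 1 control, Col8a2 differed by -1.13. That value is not matched by culture, the mOSM arrays being of WT cultures 1 and 2 and the control of WT culture 2.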
